A study of Mus musculus with 4 samples.

Results

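The genes described here encode the enzymes that build cholesterol and fatty acids, together with 4 regulators that set their transcription. They were taken by gene symbol from a fixed list of 29, and all 29 were found among the 35976 symbols of the deposited count tables. The list holds 16 sterol synthesis enzymes, 9 fatty acid synthesis enzymes and 4 regulators of the SREBP system. No measured value of these libraries entered that choice of symbols, although the list was drawn up with other results of these data known.

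Bulk RNA-seq was done on mouse double-positive (DP) thymocytes, the developing T cells that carry both CD4 and CD8a. The cells were sorted from thymus as CD24-positive and negative for surface TCRb. The 2 genotypes compared had 2 libraries each. KO mice were Cxxc1 F/F :Lck-cre, with floxed Cxxc1 alleles, and control mice were Cxxc1 +/+ :Lck-cre, with intact alleles. Both genotypes therefore carried the Lck-cre transgene, which is driven by a promoter active in T-lineage cells from an early thymic stage. Cxxc1 encodes a CpG-binding subunit of enzyme complexes that methylate histone H3 at its lysine 4 position. The labels give neither the age of the mice nor which animals the libraries were made from, so p-values measure the spread between these libraries, which may be technical.

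Cholesterol is made from acetyl-CoA through mevalonate and squalene, and fatty acids from the same acetyl-CoA through malonyl-CoA. Both routes are switched on by the SREBP transcription factors, which are held in the endoplasmic reticulum by SCAP and INSIG proteins while sterol is plentiful and are cut free when it runs low. SREBP2, from Srebf2, mainly drives the sterol genes, and SREBP1, from Srebf1, mainly drives the fatty acid genes. T cells raise both routes when they grow and divide, since new membrane is needed, and thymocytes divide in bursts around the entry to the DP stage.

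Promoter sequences are shown for 3 members. Hmgcs1 was taken as the only member whose window matched the sterol response element, a site that SREBP factors use. Elovl5 and Acaca were taken as the fatty acid enzymes with the smallest p for KO over control, so their choice depended on the expression result. The sequences are RefSeq windows on GRCm38.p6 that run from 250 bases before to 50 bases after an annotated start, all on the plus strand. Capitals mark matches, on either strand, to the sterol response element core TCACNCCAC or to the CCAAT box of the factor NF-Y, which works beside SREBP. Hmgcs1 (HMG-CoA synthase) lies at chr13:119690101-119690400, Elovl5 (a fatty acid elongase) at chr9:77917115-77917414 and Acaca (acetyl-CoA carboxylase) at chr11:84195188-84195487.
Hmgcs1: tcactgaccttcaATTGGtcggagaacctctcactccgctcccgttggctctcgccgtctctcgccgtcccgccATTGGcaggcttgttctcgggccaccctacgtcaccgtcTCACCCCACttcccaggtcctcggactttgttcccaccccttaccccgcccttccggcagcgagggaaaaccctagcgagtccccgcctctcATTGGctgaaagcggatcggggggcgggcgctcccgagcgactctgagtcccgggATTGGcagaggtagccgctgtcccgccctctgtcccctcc
Elovl5: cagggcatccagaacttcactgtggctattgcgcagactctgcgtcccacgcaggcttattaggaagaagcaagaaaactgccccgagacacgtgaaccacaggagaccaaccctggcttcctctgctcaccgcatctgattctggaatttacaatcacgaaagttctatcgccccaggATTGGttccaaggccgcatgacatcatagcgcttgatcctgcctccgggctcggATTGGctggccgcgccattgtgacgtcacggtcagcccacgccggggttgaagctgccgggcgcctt
Acaca: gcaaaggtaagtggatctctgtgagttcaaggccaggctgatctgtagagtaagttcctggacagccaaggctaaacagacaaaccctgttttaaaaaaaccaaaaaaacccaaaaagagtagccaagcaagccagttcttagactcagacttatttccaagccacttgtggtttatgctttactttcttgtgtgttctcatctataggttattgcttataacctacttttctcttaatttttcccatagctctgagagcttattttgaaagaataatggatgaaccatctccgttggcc
The Hmgcs1 window held 1 sterol response element core, 4 CCAAT boxes and 26 CpG dinucleotides. The Elovl5 window had 2 CCAAT boxes, 20 CpG and no match to the core. The Acaca window, at a start inside the gene span and not at its beginning, had 1 CpG and neither motif. Of the 29 members, 23 had a window in the table, and some had several. CCAAT matches stood in windows of 12 of 13 sterol enzymes, 3 of 6 fatty acid enzymes and 3 of 4 regulators, in all 78.3% of members with a sequence, against 41.8% of the 14352 tested genes with a window. The core matched in 1 of 23 members and in 1.55% of those genes. The Sp1 box GGGCGG matched in 18 of 23 members, against 55.9% of those genes, and the E-box CACGTG in 6 of 23, against 10.3%. Member windows had a median of 21 CpG, with a range of 1 to 39, while windows of tested genes had a median of 15. A match is a description of letters, not evidence of binding, and no match says only that those letters are absent from the window.

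Total counts were 36243182 and 33544428 in KO 1 and KO 2, and 12150508 and 34820446 in control 1 and control 2. Levels are CPM, counts scaled to a common library total, on TMM-scaled library sizes, where TMM is a correction for differences in RNA composition. Fold changes are log2 of KO over control ± standard error. Cxxc1 itself stood at 35.7 and 39.4 CPM in the KO libraries, against 110.7 and 53.5 CPM in the controls, so the KO libraries were lower without overlap (-1.12 ± 0.34, adjusted p = 0.199, edgeR's quasi-likelihood test). Which exons are floxed is not stated in the sources, so reads outside the deleted part may remain. The fold change of Cxxc1 was -1.55 without control 2, where it passed the threshold, and -0.50 without control 1 (adjusted p = 0.577), so its size depended on which control library was kept. Summed levels of 9 genes listed as DP markers were 4518 and 7002 CPM in KO libraries against 10298 and 13600 CPM in controls. Rag1 made up the largest part, at 2997 and 4488 CPM in KO against 4967 and 7055 CPM in controls (-0.68 ± 0.30, adjusted p = 0.357). Ptcra is in that list but is also expressed at the preceding double-negative stage. It was higher in KO, with 49.9 and 26.5 CPM against 13.5 and 4.27 CPM in controls (2.13 ± 0.55, adjusted p = 0.138). Rag2 and Cd24a overlapped between the genotypes. The sort required both proteins, yet Cd4 and Cd8a transcripts fell (-2.09 ± 0.32 and -2.06 ± 0.34), calls that were lost with library totals only (adjusted p = 0.0509 and 0.0566). The 4 genes listed as markers of the double-negative stage summed to 250.7 and 138 CPM in KO against 44.2 and 48.8 CPM in control libraries. Il2ra and Il7r among them rose (3.98 ± 0.37 and 5.58 ± 0.65). Of the rest of that list, Cd44 had 11.7 and 15.003 CPM in KO against 30.3 and 35.2 CPM in controls (-1.30 ± 0.32, adjusted p = 0.124), and Kit overlapped. The 4 genes need not mark the same double-negative cells. In bulk RNA, a change in the mix of cells and a change in RNA per cell cannot be told apart, and the part of this shift in the values below was not tested. Markers of other cells were low. The 5 adipocyte genes, from a cell type rich in fatty acid synthesis, summed to 1.88 to 2.87 CPM in KO against 3.40 to 3.70 CPM in controls, and the sums of the B cell, macrophage and dendritic cell, stroma and erythroid lists reached at most 26.1 CPM in KO and 17.2 CPM in controls. None of these markers was at 0 in all 4 libraries. The globin gene Hba-a1 rose, at 14.6 and 6.49 CPM in KO with no reads in either control library.

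None of the 29 synthesis genes passed the threshold in KO DP thymocytes. At an adjusted p below 0.05 (edgeR's quasi-likelihood test, Benjamini-Hochberg), 0 members were called higher and 0 lower, against 0.451% of the 20389 genes tested (92 genes). At an unadjusted p below 0.05, 2 members were higher, Elovl5 and Acaca, and 0 were lower. That is 6.90% of the members, against 6.97% of all genes higher at that level. Lower at that level were 1409 of the 20389 genes tested. Both KO libraries lay above both control libraries for 7 members, which is 24.1% against 22.8% of all genes, and below for 2 members, against 24% of all genes. The shares called higher at the unadjusted level and lying above the controls were thus near the background. DESeq2 called 1 member, Elovl5, where it called 5.19% of the genes to which it gave an adjusted p.

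**Figure D1:**
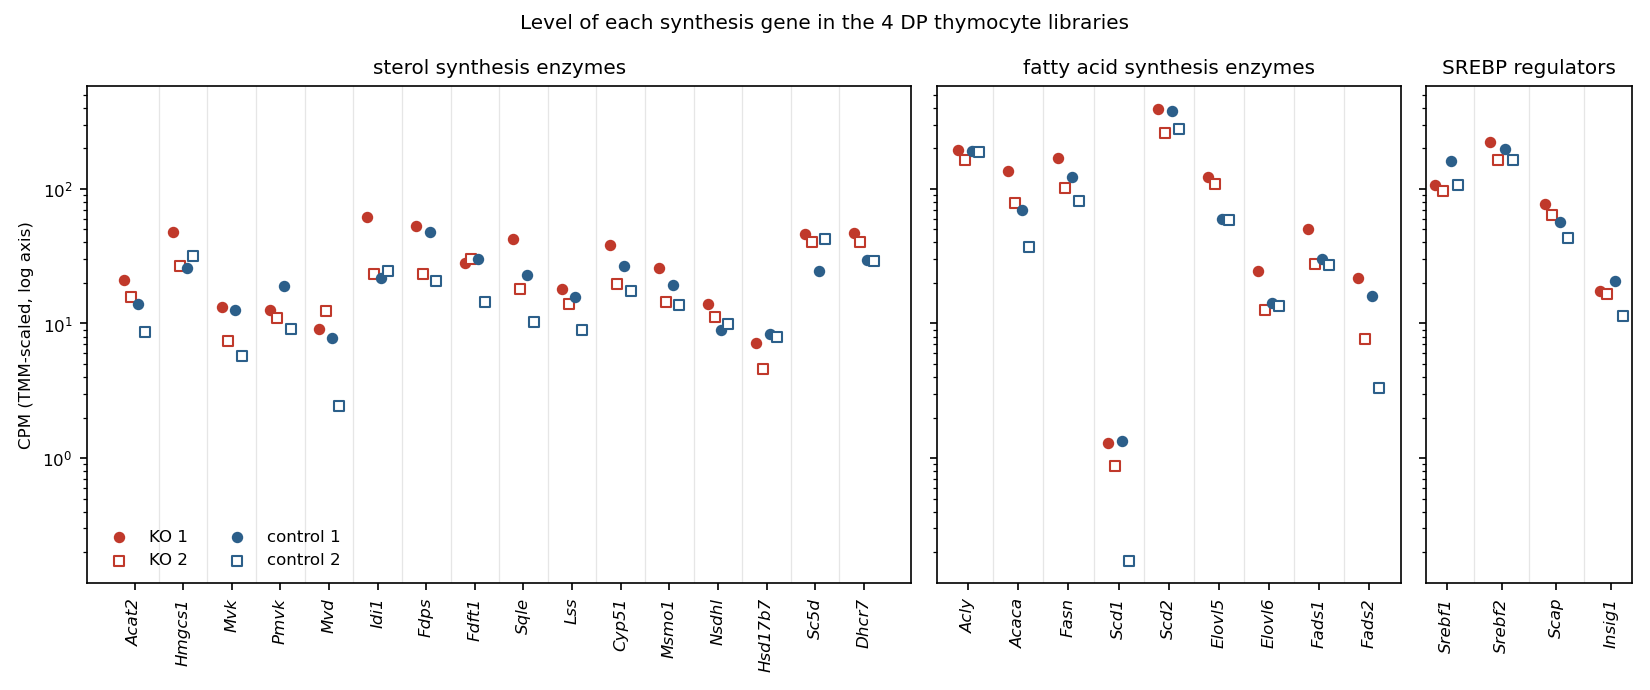
Level of each of the 29 genes in CPM on a log axis, with 1 point per library (KO 1 and KO 2 in red, control 1 and control 2 in blue, filled circles for replicate 1 and open squares for replicate 2). KO 1 lay above KO 2 for 27 of the 29 genes and control 1 above control 2 for 25, and Elovl5 was among the 7 genes whose KO points all lay above the controls.

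Point estimates leaned one way. Fold changes were positive for 25 of 29 members (86.2%), against 47.6% of all genes tested, with a median of 0.40 over the members and -0.044 over all genes. The lean varied with the libraries included. Without KO 1 it was 15 positive and 14 negative, and without control 2 it was 17 and 12, while without control 1 or without KO 2 it was 26 and 3. The 95% interval of the fold change included 0 for 27 members. It excluded both a doubling and a halving for 5 members and included one or both of these for the other members.

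The acetyl-CoA end of the sterol route opens with Acat2, the cytosolic thiolase that joins acetyl-CoA units. Acat2 stood at 21.01 and 15.6 CPM in KO libraries, against 14.0 and 8.57 CPM in controls, so its groups did not overlap but nearly touched (0.70 ± 0.40, adjusted p = 0.483). Hmgcs1, which makes HMG-CoA and whose promoter is printed above, had 47.6 and 26.7 CPM in KO and 25.8 and 31.9 CPM in controls. KO 1 was high and the other 3 libraries overlapped (0.36 ± 0.34). An antisense transcript, Gm48342, covers 12.1% of the Hmgcs1 exon bases, and reads of the pair cannot be told apart where counting ignored strand.

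The mevalonate steps are carried out by the kinases Mvk and Pmvk and by the decarboxylase Mvd. Mvd had the largest point estimate among the 29, with 9.04 and 12.4 CPM in KO libraries against 7.73 and 2.42 CPM in controls. Control 2 was far below the other 3 libraries (1.10 ± 0.59, adjusted p = 0.458). The fold change was 0.48 without control 2 and 2.16 without control 1, where it passed the threshold (adjusted p = 0.0227). Mvk (0.18 ± 0.52) and Pmvk (-0.25 ± 0.44) had overlapping groups, and Pmvk was highest in control 1, at 18.9 CPM.

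Isoprenoid units are then isomerised by Idi1 and joined by Fdps and Fdft1, the last of which commits them to squalene. Idi1 had 61.7 and 23.4 CPM in KO libraries against 21.9 and 24.5 CPM in controls. The KO mean of 42.5 ± 27.1 CPM (SD, n = 2) therefore rested on KO 1 and exceeded the control mean of 23.2 ± 1.80 CPM by less than its own SD. Fdps had 53.2 and 23.4 CPM in KO and 47.5 and 20.8 CPM in controls, so that libraries differed within each genotype by more than the genotypes did (0.17 ± 0.47). Fdft1 had 27.9 and 30.3 CPM in KO and 30.0 and 14.5 CPM in controls, with control 2 low. Fdft1 shares 18.3% of its exon bases with Ctsb on the opposite strand, and Fdps shares 26.7% with the transcript Gm43738 on the same strand.

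Squalene is oxidised by Sqle, a rate-controlling enzyme, and closed into lanosterol by Lss. Sqle had 42.5 and 18.2 CPM in KO libraries against 23.0 and 10.2 CPM in controls, so KO 2 lay below control 1 (0.88 ± 0.50, adjusted p = 0.479). Without control 1 the fold change was 1.59 and passed the threshold (adjusted p = 0.0456), while it was 0.41 without control 2 and 0.19 without KO 1. Lss had 17.9 and 14.0 CPM in KO and 15.8 and 8.97 CPM in controls.

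From lanosterol onward, Cyp51 removes a methyl group, Msmo1, Nsdhl and Hsd17b7 remove the pair at carbon 4, and Sc5d and Dhcr7 place and reduce the last double bonds. Dhcr7 was the steadiest of these, with 46.9 and 40.1 CPM in KO libraries against 29.7 and 29.2 CPM in controls. Its groups were separated by more than either spread, at 43.5 ± 4.85 CPM in KO and 29.5 ± 0.320 CPM in controls (SD, n = 2 each), yet the adjusted p was 0.394 (0.56 ± 0.27). Cyp51 had 38.1 and 19.6 CPM in KO and 26.8 and 17.5 CPM in controls, and Msmo1 followed the same order of libraries, with 25.7, 14.3, 19.2 and 13.8 CPM in KO 1, KO 2, control 1 and control 2. Nsdhl had 13.8 and 11.1 CPM in KO against 8.995 and 9.92 CPM in controls. Hsd17b7 was the one sterol enzyme with both KO libraries below both controls, at 7.17 and 4.61 CPM against 8.32 and 7.96 CPM (-0.47 ± 0.49, adjusted p = 0.751). Sc5d was low in control 1 alone, with 46.2 and 40.5 CPM in KO and 24.6 and 42.5 CPM in controls.

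On the fatty acid side, acetyl-CoA comes from citrate through Acly, is carboxylated by Acaca and is built into palmitate by Fasn. Acaca had 135 and 78.1 CPM in KO libraries against 70.0 and 36.8 CPM in controls, a 2.00-fold difference with no overlap (1.00 ± 0.36, 95% interval 0.19 to 1.81, adjusted p = 0.270). The lower KO library stood only slightly above the higher control library. Acaca passed the threshold without control 1 (1.55) and without KO 2 (1.36), and it had 0.60 without KO 1 and 0.61 without control 2, where it did not. Fasn had 169 and 101.9 CPM in KO and 122 and 80.7 CPM in controls, with overlap (0.42 ± 0.31). Acly had nearly equal levels, with 195 and 164 CPM in KO and 193 and 187 CPM in controls, and its interval of -0.57 to 0.42 excluded both a doubling and a halving.

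Fatty acid chains are lengthened by the elongases Elovl5 and Elovl6, and double bonds are added by the delta-9 desaturases Scd1 and Scd2 and by the front-end desaturases Fads1 and Fads2. Elovl5 (chromosome 9, 77917365 to 77984519 on GRCm38.p6), which extends polyunsaturated chains, had 121.7 and 107.9 CPM in KO libraries against 59.9 and 58.2 CPM in controls. Both pairs were tight, with means of 114.8 ± 9.76 CPM in KO and 59.1 ± 1.22 CPM in controls (SD, n = 2 each), a 1.94-fold difference. It had the smallest p of the 29 (0.96 ± 0.22, 95% interval 0.45 to 1.46, adjusted p = 0.109), ranking 361 among all genes. Leaving out any 1 library moved its fold change only between 0.92 and 1.06. On all 4 libraries, whether Elovl5 passed the threshold depended on the fit. It passed with no filter on low counts (adjusted p = 0.0150), by DESeq2 (0.0130) and with the replicate number as a block (0.000538). It did not pass with RLE size factors (0.115), with library totals only (0.102) or at a mean of at least 5 CPM (0.0669).

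The other chain-modifying enzymes were less settled. Elovl6, which extends palmitate, had 24.5 and 12.6 CPM in KO and 14.2 and 13.5 CPM in controls. Fads1 had 50.6 and 27.4 CPM in KO and 30.0 and 27.0 CPM in controls, so both genes were high in KO 1 alone. Fads2 had 21.8 and 7.70 CPM in KO and 15.97 and 3.32 CPM in controls, and passed the threshold without control 1, at 2.16 (adjusted p = 0.0217), but had -0.26 without KO 1. Scd2 was the most abundant member per length, with 394.8 and 261 CPM in KO, 377 and 276 CPM in controls and a fold change of 0.0070 ± 0.27. Its 95% interval of -0.61 to 0.63 excluded both a doubling and a halving. Scd1, the main desaturase of liver, was near the detection limit at 45 and 31 counts in KO and 16 and 6 counts in controls, and its interval of -2.80 to 3.89 was too wide to place it. Scd1 to Scd4 are close copies of each other, so reads among them may be split.

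The regulators had no called member and no shared direction. Srebf2 had 224 and 165 CPM in KO libraries against 198 and 165 CPM in controls (0.10 ± 0.24). Srebf1 was below both controls in both KO libraries, at 107 and 96.8 CPM against 160.2 and 107.6 CPM, with KO 1 nearly touching control 2 (-0.39 ± 0.25, adjusted p = 0.555). Gene counts add up the Srebf1 transcripts with different first exons, so SREBP1a and SREBP1c cannot be told apart. Scap, which escorts SREBP to the Golgi, had 77 and 63.7 CPM in KO against 56.4 and 43.3 CPM in controls (0.50 ± 0.26, adjusted p = 0.434), and 13.2% of its exon bases are shared with 5830462I19Rik on the other strand. Insig1, which is both a brake on SREBP and one of its targets, had 17.3 and 16.7 CPM in KO and 20.6 and 11.4 CPM in controls.

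**Figure D2:**
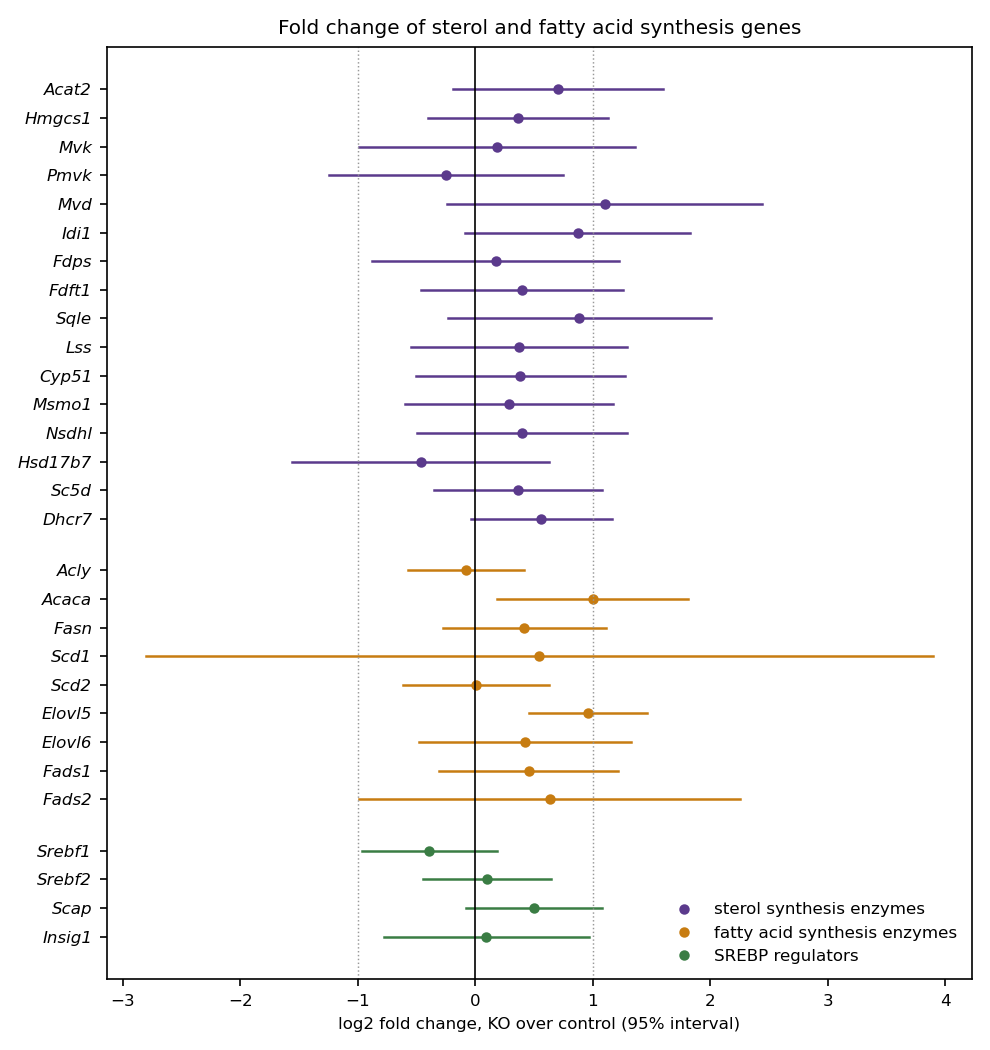
Log2 fold change of KO over control for the 29 genes (points) with 95% intervals (lines), coloured by role, with dotted lines at a halving and a doubling. Intervals of Elovl5 and Acaca lay above 0, those of the other 27 genes included it, and the interval of Scd1 was the widest.

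The sterol and fatty acid arms did not differ beyond the spread between replicates pooled over both genotypes. The 16 sterol enzymes had a median fold change of 0.38, with 14 positive and 2 negative, and the 9 fatty acid enzymes one of 0.45, with 8 positive and 1 negative, against -0.044 over all genes tested. The fatty acid median was -0.0033 without KO 1 and 0.16 without control 2, and the sterol median 0.13 and 0.25. Without control 1 the fatty acid median was 0.76 and the sterol median 0.77, and without KO 2 they were 0.84 and 0.66. The regulators had a median of 0.097. Relative to each gene's mean over the 4 libraries, the sterol enzymes averaged 0.48 and -0.082 log2 units in KO 1 and KO 2 and 0.066 and -0.47 in control 1 and control 2. The fatty acid enzymes averaged 0.62 and -0.090 in the KO libraries and 0.13 and -0.66 in the controls. The libraries thus stood in the same order in both arms, with KO 1 highest and control 2 lowest, while KO 2 lay below control 1. The arm gap, sterol minus fatty acid, was -0.065 ± 0.10 in KO and 0.065 ± 0.18 in controls (SD, n = 2 each). The KO minus control difference of -0.13 was smaller in size than the SD pooled over both genotypes (0.15). It exceeded the SD of the KO libraries alone. Without Scd1, which had 16 and 6 counts in controls, the fatty acid enzymes averaged 0.61 and -0.13 in KO and 0.043 and -0.52 in controls. The sterol median minus the fatty acid median, -0.075, became 0.13 without KO 1, 0.097 without control 2, 0.011 without control 1 and -0.18 without KO 2. As sums, the sterol enzymes took 485 and 313 CPM in KO libraries and 335 and 258 CPM in controls, and the fatty acid enzymes 1114 and 762 CPM in KO and 883 and 683 CPM in controls.

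KO 1 was the highest library for 12 of 16 sterol enzymes and 8 of 9 fatty acid enzymes, and control 2 was the lowest for 11 and 6 of them. Differences within a genotype were as large as those between genotypes. For the sterol enzymes the mean gap was 0.56 between KO 1 and KO 2 and 0.53 between control 1 and control 2, against 0.40 between KO and control. For the fatty acid enzymes these gaps were 0.71, 0.79 and 0.53, and without Scd1 they were 0.73, 0.57 and 0.48. Gaps within a genotype compare single libraries, while those between genotypes compare means of 2 libraries, which vary less. The 16 proliferation genes, which include replication factors and mitotic genes, showed within-genotype gaps of 0.64 in KO and 0.56 in controls, and 0.0090 between genotypes. Fold changes were positive for 7 of the 16 and negative for 9, so this small gap averages opposite directions. Top2a, Ccna2, Cdk1 and Rrm2 had both KO libraries below both controls, 4 of 16 beside 24% of all genes. Among the 16, Mcm2 to Mcm7, singled out after their values were seen, averaged 0.67 and -0.20 in KO 1 and KO 2. They averaged 0.092 and -0.56 in control 1 and control 2, the same order of libraries as both lipid arms. These 6 genes encode the replicative helicase. No proliferation gene was called, and the part of proliferation in the lipid gene values was not tested. Control 1 was the shallowest library, and the part of its depth in these values was not tested.

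**Figure D3:**
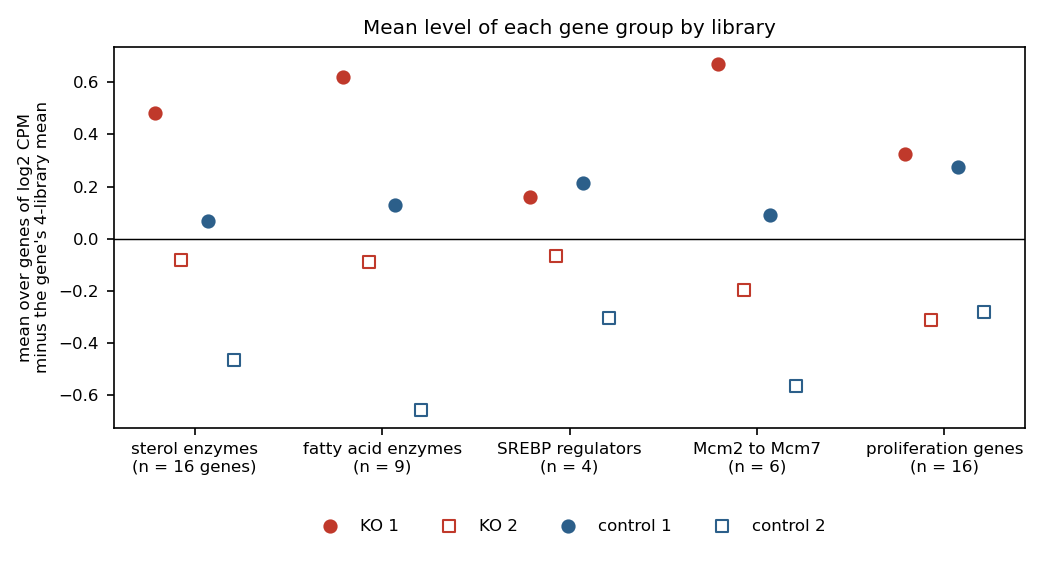
Mean over the genes of each group of log2 CPM minus the gene's mean over the 4 libraries, with 1 point per library (KO red, control blue). Sterol enzymes, fatty acid enzymes and Mcm2 to Mcm7 share the order KO 1, control 1, KO 2, control 2. Mcm2 to Mcm7 were singled out of the 16 proliferation genes after their values were seen. The mean of all 16 does not share that order, with KO 2 (-0.31) below control 2 (-0.28). The mean of the proliferation genes separates replicates and not genotypes, over 7 genes with positive and 9 with negative fold changes.

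Per length, levels span a wide range. Divided by the length of their merged GENCODE M21 exons, which may not be the annotation behind the counts, control levels were highest for Scd2 (60.0 CPM per kb in KO and 59.8 in controls), Acly (34.1 and 36.0), Srebf2 (27.1 and 25.3) and Srebf1 (18.1 and 23.8). Elovl5 followed at 32.6 CPM per kb in KO and 16.8 in controls, which placed it at rank 3 of the 29 in KO and rank 5 in controls. Fasn had 12.4 and 9.27 CPM per kb. Among the sterol enzymes Idi1 had 12.1 CPM per kb in KO and 6.62 in controls and Pmvk 6.85 and 8.18, as means of libraries that differed in the order of these enzymes.

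Around the 29 genes, other parts of lipid metabolism were described by lists of textbook genes. In the rest of the sterol route, 0 of 7 tested genes were called, and the median was 0.15. Smallest in p were Acat1, the mitochondrial thiolase (0.59 ± 0.24, adjusted p = 0.325), and Dhdds, which starts dolichol synthesis (0.46 ± 0.27). Of 8 further genes that process or degrade SREBP proteins and their partners, 0 were called and 4 were positive, with Syvn1, which encodes a ubiquitin ligase of the endoplasmic reticulum, at -0.33 ± 0.24. The 12 other known SREBP targets had a median of 0.48 and 0 calls. Stard4, a sterol carrier, had 42.5 and 29.5 CPM in KO libraries against 17.7 and 27.3 CPM in controls (0.67 ± 0.34). Me1, the malic enzyme that supplies NADPH, had 0 and 12 counts in KO and 26 and 77 counts in controls, and was not called (adjusted p = 0.382).

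Genes of sterol export and storage had a median of -0.12, with 0 of 14 called. Abcg1, a sterol exporter controlled by the LXR receptors, had 90.6 and 100.5 CPM in KO libraries against 120.4 and 132.8 CPM in controls (-0.41 ± 0.22, adjusted p = 0.459). Nceh1, a cholesteryl ester hydrolase, had 24.6 and 20.004 CPM in KO against 14.0 and 10.96 CPM in controls (0.84 ± 0.35, adjusted p = 0.326). Of 21 tested genes of fatty acid elongation and activation, 0 were called, with a median of 0.17. Scd4, a desaturase copy, had 1.64 and 1.74 CPM in KO against 8.32 and 9.81 CPM in controls, well apart though low (-2.42 ± 0.56, adjusted p = 0.109). It passed the threshold without control 1 (adjusted p = 0.0116) and without control 2 (0.0426) and by DESeq2 (0.00599), and not without KO 1 (0.379) or without KO 2 (0.201). Fads6 had 6.74 and 7.81 CPM in KO against 2.10 and 3.52 CPM in controls (1.36 ± 0.58).

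Fatty acid oxidation, which breaks fatty acids down in mitochondria, held the one gene among these lipid lists that edgeR called. Cpt1a, the gate that admits long-chain fatty acids to mitochondria, rose to 79.6 and 121.7 CPM in KO libraries, against 20.3 and 31.9 CPM in controls (1.94 ± 0.32, adjusted p = 0.0442). It passed the threshold with each of the 4 libraries left out, at 1.62 to 2.31, and not with library totals only, at 1.98 (adjusted p = 0.0509). Across the list, 1 of 19 genes was called higher and 0 lower, where 0.451% of all genes were called. At an unadjusted p below 0.05, 7 of 19 were higher, beside 6.97% of all genes, and both KO libraries lay above both controls for 11 of 19, beside 22.8% of all genes. The median was 0.35. In this list the libraries of a genotype stood together, at 0.25 and 0.26 log2 units in KO 1 and KO 2 and -0.33 and -0.19 in control 1 and control 2, relative to each gene's mean. Whether this difference from the synthesis arms exceeds error was not tested.

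**Figure D4:**
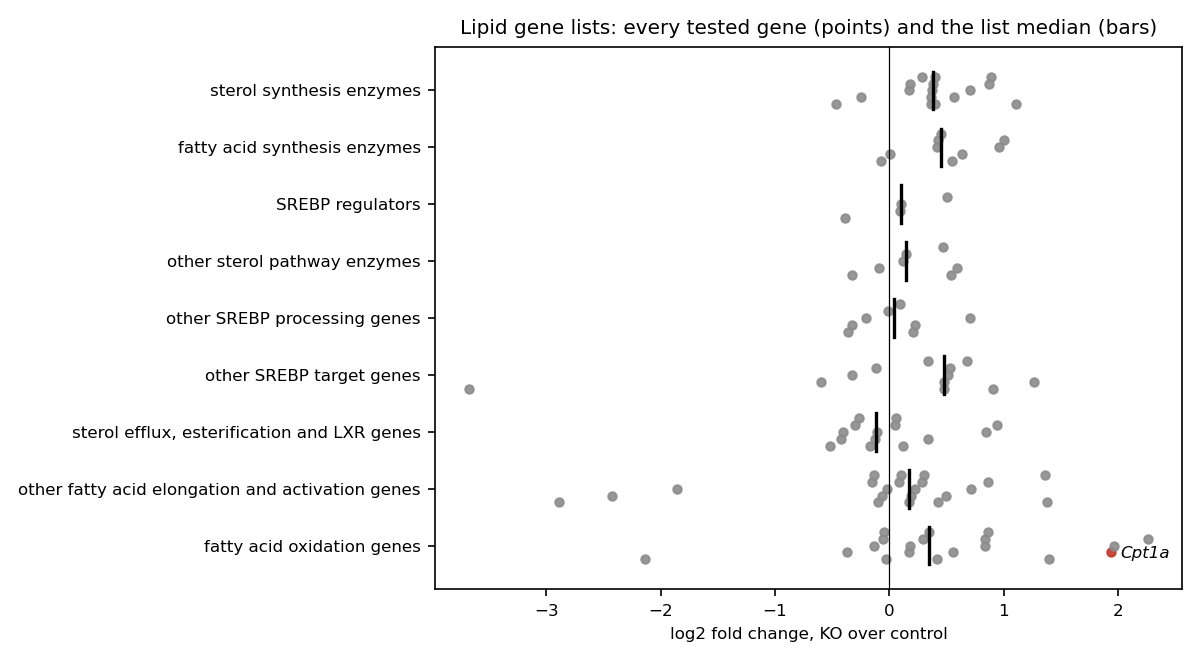
Log2 fold change of KO over control for every tested gene of 9 lipid gene lists (grey points, red where edgeR called it) with the list median (black bars). Cpt1a is the only gene among them called by edgeR, and the medians of the 2 synthesis arms, 0.38 and 0.45, lie close together.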

How the data were processed

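Counts per gene symbol were deposited by the authors as whole numbers, not normalised, 1 table per library. Reads were aligned with HISAT2, per the file headers. In the submitters' processing notes stand mm10, featureCounts 2.0.8, HISAT2 2.2.1, edgeR 3.36.0 and cutadapt 4.0, without their roles. Per the labels' protocols, RNA was amplified by a SMART-seq kit. No source used here states the annotation, the strand setting or how multiply aligned reads were counted.

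All genes were fitted together with edgeR 4.0.16 (R 4.3.3). After filterByExpr (minimum count 10) and TMM scaling, they were tested by the quasi-likelihood test with genotype as the only term, with p-values adjusted over all 20389 genes. The standard error is the size of the fold change over the square root of F, and 95% intervals use the moderated degrees of freedom. DESeq2 1.42.0 was an alternative. The test was checked on simulated counts. Depth limits precision: a floor of 3 counts was 0.0861 and 0.0843 CPM in KO and 0.252 and 0.0865 CPM in control libraries, and covers counting error only. No library pair agreed within counting noise.

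The members, lists and naming rule were chosen with earlier results of these data known. All members were named, with the called genes, or otherwise the 2 of smallest p, of each other lipid list. One gene that this rule names is not reported here.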

Additional observations from a re-analysis of the deposited data

How the results depend on the processing

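Counts of called genes depended on the fit. Against 92 genes and 0 of the 29 synthesis genes in the fit reported, 920 and 2 were called with no filter on low counts, 231 and 0 at a mean of at least 5 CPM, and 1039 and 1 by DESeq2. The 2 were Elovl5 and Acaca (adjusted p = 0.0150 and 0.0107), and the 1 was Elovl5 (adjusted p = 0.0130). The share called higher was 59.8%, against 47.6% at a mean of at least 5 CPM and 45.1% with DESeq2. The labels do not say that equal replicate numbers mark a shared animal or day. With the replicate number as a block, 1599 genes were called, among them 2 of the 29, Elovl5 and Acaca (adjusted p = 0.000538 and 0.000233), and within-genotype deviations of same-numbered libraries correlated at -0.0096 over all genes tested and 0.27 over genes of at least 5 CPM. Leaving out 1 library gave 223 to 864 called genes and 0 to 4 called synthesis genes. Those fits leave a genotype with a lone library, which is assumed to vary like the others. The 4 without control 1 were Mvd, Sqle, Acaca and Fads2, and the 1 without KO 2 was Acaca.

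The sterol median ranged from 0.13 to 0.77, the fatty acid median from -0.0033 to 0.84 and the difference between the arms from -0.18 to 0.13 when 1 library was left out. Under the other settings each moved by less than its replicate SD (0.389, 0.530 and 0.146). The fatty acid median and the difference did so also with Acly counted with the sterol enzymes and with Scd1 left out, a setting chosen after seeing the data. Directions turned for Scd2, at -0.018 with RLE size factors, -0.074 at a mean of at least 5 CPM, -0.0098 with DESeq2 and -0.0069 with the replicate block. With 1 library left out, 15 genes took both signs. Sterol enzymes ranged from -0.061 to 0.74 for Hmgcs1, -0.28 to 0.87 for Mvk, -0.68 to 0.38 for Pmvk, -0.49 to 0.89 for Fdps, -0.034 to 1.03 for Fdft1, -0.12 to 0.80 for Cyp51 and -0.15 to 0.66 for Msmo1. Fatty acid enzymes ranged from -0.16 to 0.060 for Acly, -0.30 to 2.63 for Scd1, -0.27 to 0.29 for Scd2, -0.083 to 0.84 for Elovl6, -0.0033 to 0.85 for Fads1 and -0.26 to 2.16 for Fads2. Srebf2 ranged from -0.088 to 0.32 and Insig1 from -0.27 to 0.59. The causes were not tested.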
